A study of Spinacia oleracea with 24 samples.

Results

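HSFB2A and HSF30 are 2 of the 25494 genes listed for the spinach leaf, and both carry names of heat stress transcription factors. They were chosen by their measured values, namely more RNA at low than at high nitrogen at the end of the dark period, so their values at that time are a description and carry no test. Both names come from sequence similarity, HSFB2A (Spo12958) to the Arabidopsis thaliana protein B-2a and HSF30 (Spo06105) to a protein of the wild tomato Solanum peruvianum. Of the listed genes, 17 carry the name of a heat stress factor, and the 15 other than these 2 serve as the family to set them against.

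Leaves of Spinacia oleracea, cultivar Space, came from plants aged 48 days and kept under 8 h of light. One set of plants received nitrogen at 50 ppm (LN) and the other at 200 ppm (HN). Sampling fell at the end of dark (T1), mid light (T2), the end of light (T3) and mid dark (T4), all within 1 day, with 3 plants per nitrogen level and time and hence 24 libraries of polyadenylated RNA. No heat treatment is named in the labels, and all plants shared the cultivar and the growth conditions other than nitrogen.

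Heat stress factors (Hsfs) bind heat shock elements in promoters. In Arabidopsis and tomato, class A members activate genes of chaperones such as Hsp70, Hsp101 and the small heat shock proteins, whereas most class B members lack the activator motif and many act as repressors. Tomato HSF30 is the factor also called HsfA2, an activator whose gene is itself strongly induced by heat, and Arabidopsis HsfB2a belongs to the repressing class. RNA of several family members and chaperones is known from Arabidopsis to vary over the day as well as with stress.

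HSFB2A lies on chromosome 3 from 2079208 to 2081612 on the minus strand of the Sp75 genome, a span of 2405 bases with a listed gene length of 2260. HSF30 lies on chromosome 1 from 34803907 to 34807016, also on the minus strand, a span of 3110 bases with a listed gene length of 1653. Levels are FPKM, fragments per kilobase of gene length scaled for library size, so that they can be set against each other between genes. Between 18369094 and 25252705 fragments per library lay in genes. LN T1 replicate 2, LN T3 replicate 3 and LN T4 replicate 3 were the libraries farthest from the others of their groups, and some values are given without them as well. Without them the T1 differences were 2.81 for HSFB2A and 2.55 for HSF30.

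At the end of dark, HSFB2A was close to 1 FPKM in every HN library and well above that in every LN library. HSFB2A had 8.40, 9.13 and 18.8 FPKM in the LN libraries at T1, against 0.980, 0.939 and 0.903 FPKM in the HN libraries. These values rest on 438, 535 and 869 fragments in LN and on 41, 47 and 42 fragments in HN. The HN values lay close together, while the LN values were spread by replicate 3, which was the highest. The ratio of the LN mean to the HN mean was 12.9, and the lowest LN library was 8.57 times the highest HN library.

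HSF30 was far more abundant at this time at both nitrogen levels. HSF30 had 85.1, 110 and 179 FPKM in the LN libraries at T1, against 17.02, 30.4 and 16.1 FPKM in the HN libraries. Replicate 3 was again the highest LN library, and replicate 2 was the highest HN library. The ratio of means was 5.89, and the lowest LN library was 2.80 times the highest HN library.

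On the log2(FPKM + 1) scale used for all tests, which understates differences of genes with low values, the LN minus HN difference at T1 was 2.67 for HSFB2A and 2.49 for HSF30. HSFB2A ranked 56th and HSF30 76th from the top among 18110 genes. For both genes all 3 LN libraries lay above all 3 HN libraries, as they did for 14.1% of the genes, and nothing is read from this count because this contrast chose the genes. At an adjusted p under 0.05, 9.97% of all genes passed in this contrast. With each library left out in turn the difference lay between 2.33 and 2.87 for HSFB2A and between 2.20 and 2.77 for HSF30.

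Summed levels of cell type markers were not tested. At this time the LN and HN sums lay apart for epidermis and guard cells and overlapped for mesophyll and root. Few single markers passed the test. The 24 marker genes of leaf mesophyll (the Rubisco small subunit, Rubisco activase and the chlorophyll antenna proteins) were above 0 in every library. Of them 0 were higher and 1 lower in LN at T1, where 5.1% of all genes were higher and 4.86% lower. Their median difference was -0.54 log2 units, and 2 of the 24 differences were above 0. Their summed level was 34395 to 59934 FPKM in LN at T1 (median 36181) and 56242 to 80971 FPKM in HN (median 73444), so that the groups overlapped at their edges. Epidermal markers summed to 242 to 267 FPKM in LN and 176 to 206 FPKM in HN, over 4 genes of which 1 was at 0 in all 24 libraries and 1 of 3 tested passed, upwards. Guard cell markers (5 genes, all above 0) summed to 77.9 to 96.9 FPKM in LN and 102 to 109 FPKM in HN. Of these 5 genes 1 was lower, 3 had a difference above 0, and the median difference was 0.10 log2 units. The 6 root markers summed to 11.6 to 15.9 FPKM in LN and 9.54 to 13.3 FPKM in HN. SCR (5.64 to 20.98 FPKM over all libraries) and 1 SHR gene (0.916 to 7.09 FPKM) were above 0 in every library, and 1 of these 2 was higher in LN at T1. The CASP1 genes reached at most 0.350 FPKM and WOX5 at most 0.130 FPKM, and SUC2 of the phloem reached at most 0.422 FPKM. The part of these shifts in the HSFB2A and HSF30 values was not tested. In whole leaves, fewer cells of a type and less RNA per cell cannot be told apart.

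**Figure D1:**
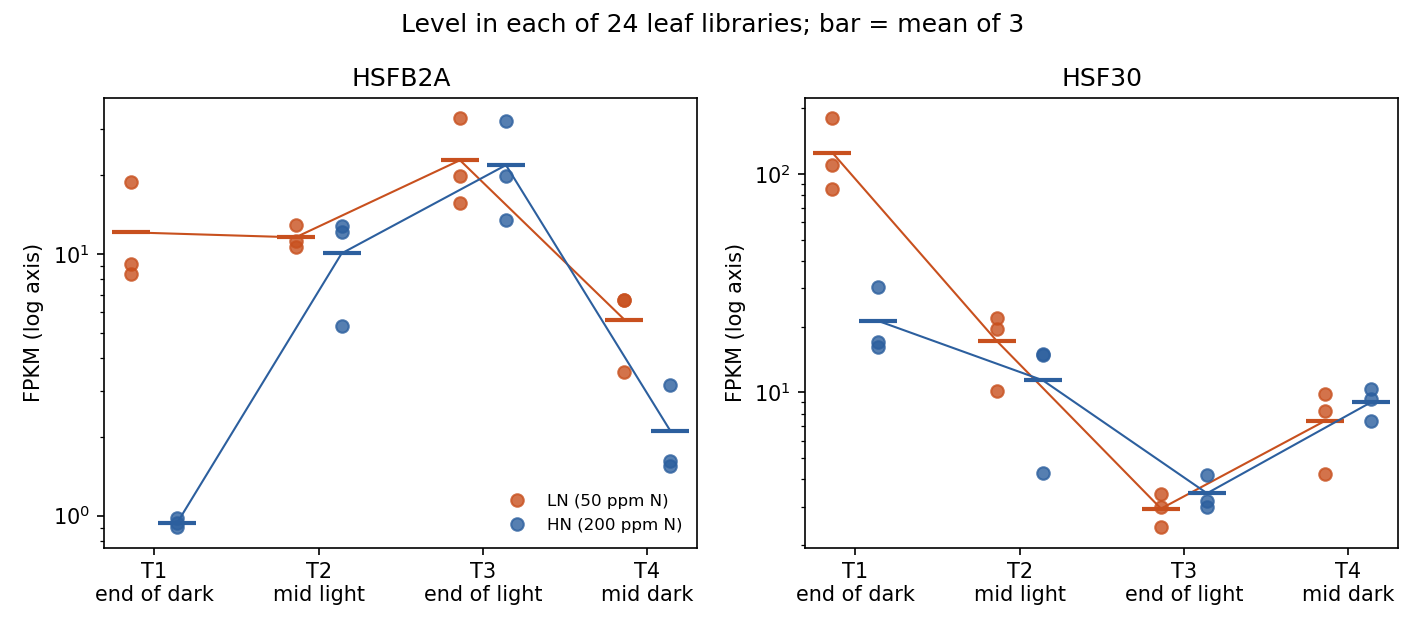
FPKM (log axis) of HSFB2A and HSF30 in each library (points, 3 per group) and the group mean (bar, joined by lines) at T1 to T4, in LN and HN leaves, with a panel per gene. HSFB2A was highest at T3 at both nitrogen levels and HSF30 at T1, and the LN and HN points are apart for both genes at T1.

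At the other times of day the LN to HN ratios of means were smaller than at T1. T1 is the time that chose the genes, and it was not tested against the others. At T2, mid light, HSFB2A had 10.6, 11.2 and 12.9 FPKM in LN and 12.1, 12.8 and 5.32 FPKM in HN. HSF30 at T2 had 10.2, 21.9 and 19.5 FPKM in LN and 15.03, 14.7 and 4.30 FPKM in HN. The groups overlapped for both genes, so that 0 of the 2 had LN wholly above HN, as 7.48% of all genes did. HN replicate 3 was the lowest library for each of them. The LN to HN ratio of means was 1.15 for HSFB2A and 1.51 for HSF30.

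At T3, the end of light, HSFB2A had 33.0, 19.9 and 15.7 FPKM in LN, nearly the same as the 32.3, 19.8 and 13.5 FPKM in HN, with a ratio of means of 1.04. HSF30 had 3.42, 2.98 and 2.42 FPKM in LN at T3 and 4.19, 3.18 and 2.99 FPKM in HN, with a ratio of 0.851. The LN values of HSF30 at this time rest on 75 to 116 fragments. The groups overlapped for both genes, at a time when 5.48% of all genes had LN wholly above HN.

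At T4, mid dark, the genes parted. HSFB2A had 6.66, 3.55 and 6.65 FPKM in LN, against 1.61, 3.17 and 1.55 FPKM in HN, a ratio of means of 2.66. All LN libraries stood above all HN libraries, but the lowest LN library was only 1.12 times the highest HN library. HSF30 had 9.83, 8.19 and 4.24 FPKM in LN at T4, against 9.35, 10.4 and 7.37 FPKM in HN, with overlapping groups and a ratio of 0.822. Of the 2 genes, 1 thus had LN wholly above HN at T4, as 12.2% of all genes did.

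None of these nitrogen differences passed the test across all genes (limma, Benjamini-Hochberg adjusted p under 0.05). The log2 difference for HSFB2A was 0.27 at T2 (95% interval -0.48 to 1.01, limma adjusted p = 0.854) and 0.08 at T3 (-0.67 to 0.83, adjusted p = 0.985). At T4 it was 1.09 (0.34 to 1.84), with an unadjusted limma p of 0.00663 and an adjusted p of 0.135. For HSF30 the difference was 0.66 at T2 (-0.16 to 1.47, limma adjusted p = 0.613), -0.18 at T3 (-0.99 to 0.64, adjusted p = 0.953) and -0.31 at T4 (-1.12 to 0.51, adjusted p = 0.711). Averaged over T2 to T4 it was 0.48 for HSFB2A (0.04 to 0.91, adjusted p = 0.206) and 0.06 for HSF30 (-0.41 to 0.53, adjusted p = 0.914).

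Few genes of any kind passed at those times. The share of all tested genes called in either direction was 0.00552% at T2, 0.00552% at T3, 0.37% at T4 and 2.25% for the average, against 0 of the 2 genes in each. At an unadjusted p under 0.05, HSFB2A alone passed, at T4, where 17.6% of all genes did, and in the average, where 20.1% did. With voom, limma's model for counts, on recovered fragments, 0 of the 2 genes passed too. The intervals still allow differences of more than 1 log2 unit in either direction, upwards for HSFB2A at T2 and T4 and HSF30 at T2, and downwards for HSF30 at T4. Whether the nitrogen difference itself varied between T2, T3 and T4 gave an adjusted p of 0.741 for HSFB2A and 0.766 for HSF30 (limma F test), and 0% of all genes passed that test.

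At T4 the mesophyll marker sum was 15498 to 45842 FPKM in LN and 44127 to 57971 FPKM in HN, and its part in the HSFB2A values there was not tested. Without the 3 farthest libraries the HSFB2A difference at T4 was 0.96 and that of HSF30 was 0.00, in place of -0.31.

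**Figure D2:**
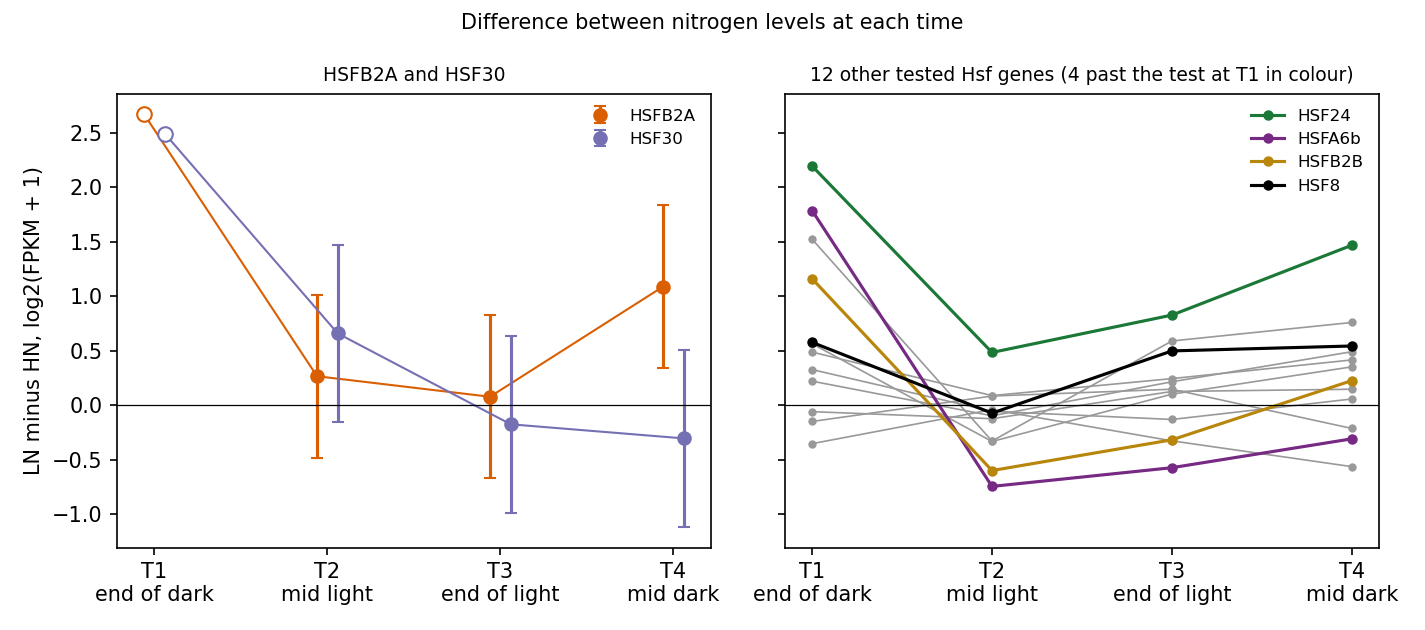
LN minus HN difference in log2(FPKM + 1) at T1 to T4, for HSFB2A and HSF30 with 95% intervals from limma at T2 to T4 (left) and for the 12 other tested Hsf genes (right, the 4 that passed at T1 in colour). The T1 points, 2.67 and 2.49, chose the genes and carry no interval (open circles), and of the intervals drawn only that of HSFB2A at T4 lies wholly above 0.

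The daily course separated the 2 genes from each other. Mean HSFB2A in LN was 12.1 ± 5.80 FPKM at T1, 11.6 ± 1.15 at T2, 22.8 ± 9.04 at T3 and 5.62 ± 1.79 at T4 (SD, n = 3 each). In HN it was 0.941 ± 0.0384 FPKM at T1, 10.1 ± 4.12 at T2, 21.9 ± 9.54 at T3 and 2.11 ± 0.916 at T4. The order of the means was T3, T1, T2, T4 in LN and T3, T2, T4, T1 in HN, so that the end of dark was the second highest time in LN and the lowest in HN. The neighbours T1 and T2 in LN differed by less than their spread, and the LN libraries at T1 and T3 overlapped. The highest time was 4.07 times the lowest in LN and 23.3 times in HN.

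Mean HSF30 in LN was 125 ± 48.6 FPKM at T1, 17.2 ± 6.20 at T2, 2.94 ± 0.502 at T3 and 7.42 ± 2.87 at T4. In HN it was 21.2 ± 8.00 FPKM at T1, 11.4 ± 6.12 at T2, 3.45 ± 0.643 at T3 and 9.02 ± 1.52 at T4. The order was T1, T2, T4, T3 at both nitrogen levels, with a highest to lowest ratio of 42.5 in LN and 6.14 in HN. In both LN and HN, all 3 libraries at T1 lay above all libraries of the other times. The T1 mean was 7.26 times the T2 mean in LN and 1.87 times in HN. T2 and T4 in HN were neighbours whose libraries overlapped.

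Because T1 was used to pick the genes, time was tested over T2, T3 and T4 alone. HSFB2A varied over these times in LN (limma F test, adjusted p = 0.00622) and in HN (adjusted p = 7.11e-05). HSF30 varied in LN (adjusted p = 0.00335) and in HN (adjusted p = 0.0283). Both genes thus passed at both levels, where 13.3% of all genes passed in LN and 24.6% in HN.

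HSFB2A fell between the end of light and mid dark at both nitrogen levels. The T4 minus T3 difference was -1.82 log2 units in LN (limma adjusted p = 0.00243), where 7.25% of all genes fell, and -2.83 in HN (adjusted p = 4.8e-05), where 9.49% fell. The T3 mean was 4.07 times the T4 mean in LN and 10.4 times in HN. HSFB2A at T2 was higher than at T4 in HN by 1.79 (adjusted p = 0.00162), as 12.5% of all genes were. In LN the same difference was 0.96 and did not pass (adjusted p = 0.105), where 7.66% of all genes passed. The step of T3 over T2 was 0.86 in LN (adjusted p = 0.278) and 1.05 in HN (adjusted p = 0.149), so neither passed, where 1.88% of all genes passed in LN and 2.77% in HN.

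HSF30 ran the other way across the light period. It fell at T3 relative to T2 in LN, with a difference of -2.15 log2 units (limma adjusted p = 0.00348), where 0.79% of all genes fell. In HN the same difference was -1.32 and did not pass (adjusted p = 0.083). In HN its level at T4 was 1.17 above T3 (adjusted p = 0.0421), where 8.88% of all genes rose, and in LN, where 5.85% rose, the difference was 1.04 (adjusted p = 0.0829). T2 against T4 did not pass at either level, with 1.11 in LN (adjusted p = 0.0865) and 0.15 in HN (adjusted p = 0.818), where 23.7% of all genes passed.

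The HSF30 calls in HN are the least secure of these. The T4 minus T3 call ended without any one of the 6 HN libraries at T3 and T4 (adjusted p up to 0.115). HN T2 replicate 3, the low library at mid light, also mattered, since without it T3 minus T2 in HN was -1.84 (adjusted p = 0.00528) and T2 minus T4 in LN and T4 minus T3 in LN passed as well. The F call in HN ended without any one of 7 HN libraries (adjusted p up to 0.0919), namely replicates 1 and 2 at T2, all 3 at T3 and replicates 1 and 2 at T4.

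Placed against each other, the 2 genes changed rank over the day. The ratio of mean HSF30 to mean HSFB2A was 10.3 in LN and 22.5 in HN at T1. It was 1.48 in LN and 1.13 in HN at T2, and 0.129 in LN and 0.158 in HN at T3. At T4 it was 1.32 in LN and 4.27 in HN. HSF30 was therefore the more abundant gene at the end of dark, HSFB2A at the end of light, and the 2 were of similar level at mid light.

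Over the 24 libraries the 2 genes had a Pearson correlation of -0.169 on the log2 scale, and over the 18 libraries of T2 to T4 it was -0.319. After the mean of each group was taken off, the correlation of the deviations was 0.592 over the 24 libraries. These points share plants, libraries and size scaling, and the values are a description.

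**Figure D3:**
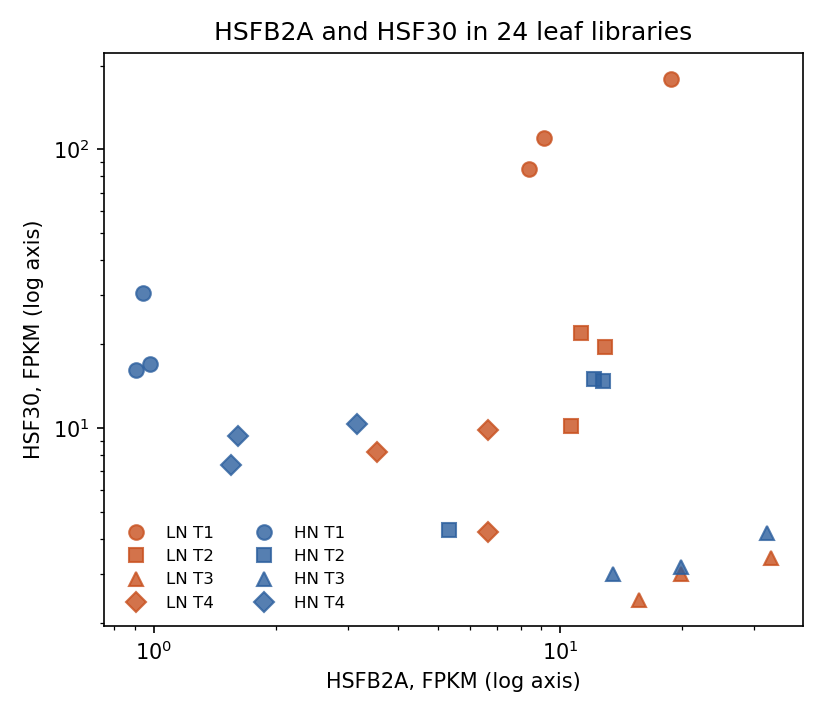
HSF30 against HSFB2A, both in FPKM on log axes, 1 point per library (24), marked by time (shape) and nitrogen level (colour). T3 libraries sit at high HSFB2A and low HSF30, and LN libraries at T1 at high values of HSF30 with HSFB2A between 8.40 and 18.8 FPKM.

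The summed FPKM of the 17 Hsf genes shows how much of the family's RNA came from these 2. At T1 the sum was 248 ± 89.9 FPKM in LN and 85.0 ± 19.2 FPKM in HN. HSF30 made up 50.1 ± 1.72% of it in LN and 24.4 ± 3.46% in HN, and was the most abundant Hsf gene at both levels. HSFB2A made up 4.79 ± 0.727% in LN and 1.14 ± 0.229% in HN, ranking 6th and 13th of the 17. Both genes were chosen by LN against HN at T1, so the T1 sums and shares are a description. At T3 the places were exchanged. HSFB2A was then the most abundant Hsf gene, with 20.5 ± 6.58% in LN and 21.3 ± 5.60% in HN, and HSF30 held 2.66 ± 0.217% in LN and 3.46 ± 0.290% in HN.

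**Figure D4:**
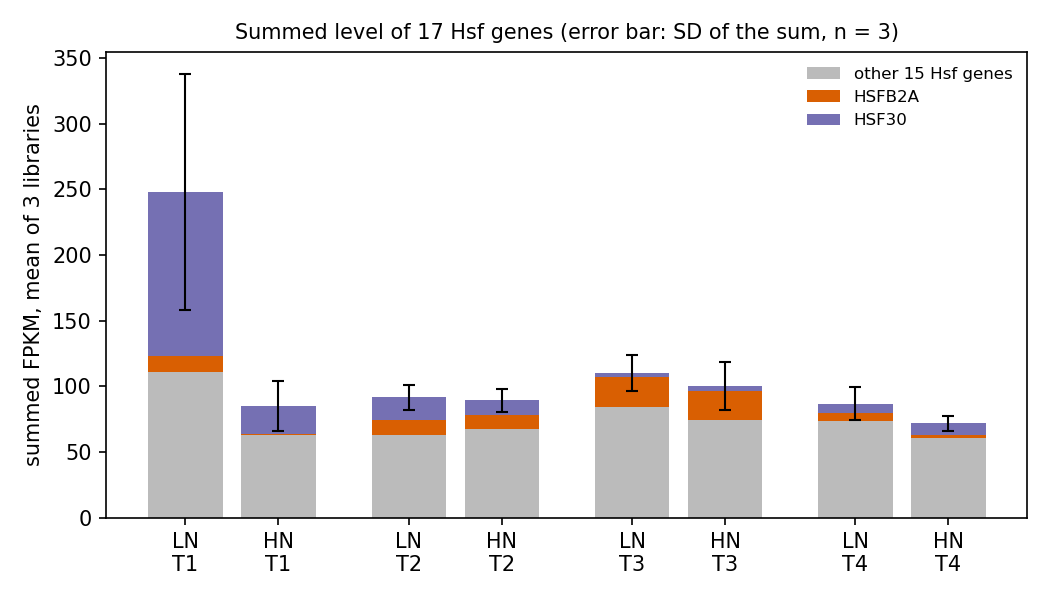
Summed FPKM of the 17 Hsf genes by group (stacked bars of group means, error bar SD of the sum, n = 3), divided into HSF30, HSFB2A and the other 15, with LN left of HN at each time. The LN bar at T1 is the tallest, at 248 FPKM, and HSF30 makes up 50.1% of that group's sum. HSF30 and HSFB2A were chosen by their T1 values, so this is a description.

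The other 15 Hsf genes summed to 111 ± 36.2 FPKM in LN and 62.9 ± 11.2 FPKM in HN at T1, and 12 of them were expressed highly enough to be tested. At T1, 4 of the 12 were higher in LN and 0 were lower, where 5.1% of all genes were higher and 4.86% lower. The median difference of the 12 was 0.53 log2 units, against 0.01 over all genes. At T2, T3, T4 and in the average of these times 0 of the 12 passed.

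HSF24 (Spo22916), named after the tomato factor also called HsfB1, had 9.91, 11.9 and 39.7 FPKM in LN at T1 and 2.20, 3.56 and 3.10 FPKM in HN (2.19, limma adjusted p = 0.00666). HSFA6b (Spo02267), in Arabidopsis a factor tied to abscisic acid and heat, had 5.91, 10.05 and 23.98 FPKM in LN and 2.78, 2.37 and 2.65 FPKM in HN (1.79, adjusted p = 0.00626). In both genes LN replicate 3 was the highest library, as it was for HSFB2A and HSF30. HSFB2B (Spo00709), the class B relative closest in name to HSFB2A, had 9.35, 16.8 and 17.5 FPKM in LN and 5.07, 8.65 and 4.23 FPKM in HN (1.16, adjusted p = 0.0372). HSF8 (Spo23372), named after the tomato factor HsfA1, had 6.58, 8.31 and 6.98 FPKM in LN and 4.30, 4.44 and 4.89 FPKM in HN (0.58, adjusted p = 0.0486). The HSF8 call ended without any one of 17 libraries (adjusted p up to 0.143) and with the replicate number as a block within T1 (adjusted p = 0.0523). All LN libraries lay above all HN libraries in each of the 4 genes, as in 14.1% of all genes. The 4 were singled out for passing at T1, so nothing is read from this count.

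Of the 8 that did not pass, HSFC1 differed by 1.52 (limma adjusted p = 0.0564), HSFA3 by 0.56 and HSFA8 by 0.49. HSFA4A, HSFA2B, HSFA1, HSFA5 and HSFA2C lay between -0.35 and 0.33. Without the 3 farthest libraries 3 of the 12 passed, and of all genes 1608 were higher in LN and 1715 lower, in place of 924 and 881. Without HN T1 replicate 1, HN T1 replicate 3 or LN T1 replicate 2, 2 of the 12 passed. Without LN T1 replicate 3, 0 of the 12 passed and the number of all genes higher in LN at T1 was 211. With only the T1 libraries in the fit the numbers were 0 and 206. The T1 differences of HSFB2A and HSF30 were 2.33 and 2.20 without that library.

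At T4 relative to T3, where HSFB2A fell, 2 of the 12 other Hsf genes fell and 2 rose at each nitrogen level. Of all genes, 7.25% fell and 5.85% rose in LN, and 9.49% fell and 8.88% rose in HN. HSFA3, an activator in the Arabidopsis heat response, had a difference of -1.33 in LN (limma adjusted p = 0.00149) and -1.58 in HN (adjusted p = 0.00032). HSFA8 fell too, with -1.16 in LN (adjusted p = 0.017) and -1.34 in HN (adjusted p = 0.00564). HSFA2B rose at T4 by 1.10 in LN (adjusted p = 0.00264) and by 0.82 in HN (adjusted p = 0.0133). Its mean levels were low, from 0.833 FPKM at T3 to 2.91 at T4 in LN and from 0.602 to 1.85 FPKM in HN. HSFA2C rose by 0.60 in LN (adjusted p = 0.0305) and by 0.83 in HN (adjusted p = 0.00332). Across the 24 libraries the correlation with HSFB2A was 0.787 for HSFA3, 0.770 for HSFA8 and -0.835 for HSFA2C. With HSF30 it was 0.864 for HSFB2B and 0.806 for HSFA6b. HSFB2B and HSFA6b passed at T1, the contrast that chose HSF30, and these libraries include T1. Their correlations with HSF30 are therefore a description.

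Hsfs are known to control some chaperone genes, and at T1 genes of the Hsp70 list were called in both directions. Of 23 tested genes in the list 5 were higher in LN and 1 was lower, with a median of 0.40. Of the 23, 19 differences were above 0, against 9195 of 18110 for all genes. Matched by name, the list also holds cognate, luminal-binding, chloroplast and mitochondrial forms. It also holds HOP2, an organizing protein of Hsp70 and Hsp90, which was not among those called. Unless another fit is named, counts of this and later lists stand against 5.1% of all genes higher and 4.86% lower. HSP70-4 (Spo17157) had 12.9 to 63.0 FPKM in LN and 0.534 to 0.975 FPKM in HN (3.96, limma adjusted p = 0.00319), with no overlap. The cognate HSP70 gene Spo06975 averaged 15.5 ± 11.98 FPKM in LN and 0.600 ± 0.510 FPKM in HN (3.16, adjusted p = 0.00306). HSC-2 (Spo12687), the most abundant Hsp70 gene that passed, averaged 212 ± 132 FPKM in LN and 32.2 ± 2.21 FPKM in HN (2.51, adjusted p = 0.0229). The HSC-2 call ended without any one of 4 libraries (adjusted p = 0.143 without LN T1 replicate 3). Those of HSP70-4 and Spo06975 held with each library left out in turn. HSP70-17 (Spo01413) was the lower one, with 5.31 ± 1.52 FPKM in LN and 11.2 ± 2.33 FPKM in HN (-0.97, adjusted p = 0.0332). Near-identical Hsp70 copies may share reads and no source used here says how those were counted, so single copies are uncertain.

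HSP70-4 and HSC-2, like HSFB2A, were low in HN at T1 and T4 and high at T2 and T3. HSP70-4 in LN averaged 31.9 FPKM at T1, 62.2 at T2, 61.8 at T3 and 1.60 at T4, and in HN 0.715, 63.8, 32.1 and 0.499 FPKM at the same times. It fell at T4 relative to T3, with a difference of -4.22 in LN (limma adjusted p = 0.000949) and -4.39 in HN (adjusted p = 0.000598). Its correlation with HSFB2A over the 24 libraries was 0.859, that of HSC-2 was 0.825 and that of the DnaJ co-chaperone gene ANJ1 (Spo03015) was 0.876. That of Spo06975 was 0.602 and that of HSP70-17 was -0.837. With HSF30 the correlations were 0.027 for HSP70-4, 0.077 for HSC-2, 0.129 for ANJ1, 0.331 for Spo06975 and 0.138 for HSP70-17. These genes were named for passing at T1, the contrast that chose HSFB2A and HSF30. The 24 libraries include T1, so the correlations are a description and carry no test.

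**Figure D5:**
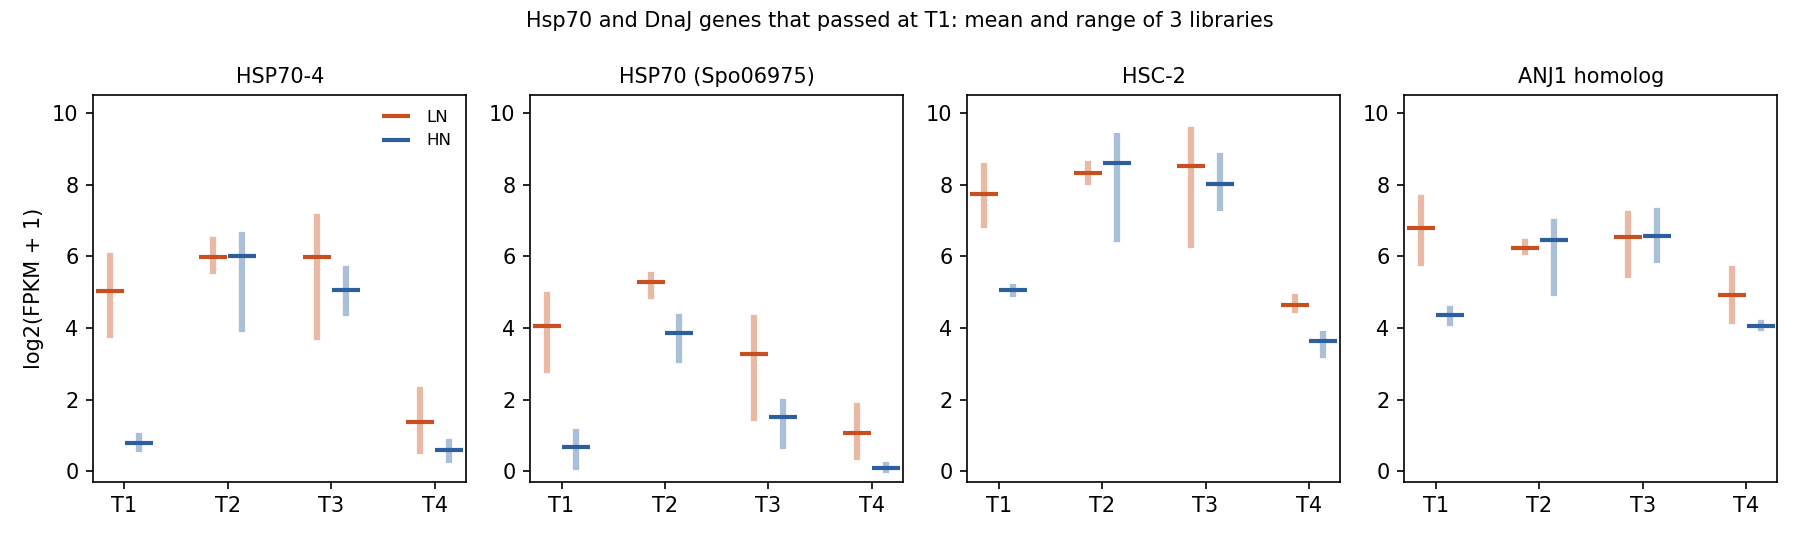
log2(FPKM + 1) of HSP70-4, the HSP70 gene Spo06975, HSC-2 and the ANJ1 homolog by time in LN and HN leaves, with the group mean FPKM on that scale (horizontal bar) and the range of 3 libraries (vertical bar). All 4 genes are lower at T1 and T4 than at T2 in HN. Their LN range at T1 lies above the HN range, as in 14.1% of all genes, and all 4 were picked for passing at T1.

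The other lists add smaller numbers at T1. Of 7 Hsp100 genes 2 were higher, CLPB1 (Spo05257), a disaggregase, by 1.37 (limma adjusted p = 0.00736) and CLPB3 (Spo18526) of the chloroplast by 0.60 (adjusted p = 0.0169). Of these 7 genes, 6 had a difference above 0. Of 6 Hsp90 genes 0 passed, with a median of 0.79 and 6 of 6 above 0. HSC80 averaged 755 ± 126 FPKM in LN and 510 ± 83.4 FPKM in HN (adjusted p = 0.122). Of 19 small heat shock protein genes 3 were higher and 1 lower, with a median of 0.76 and 15 above 0. HSP23 (Spo12147) was higher (adjusted p = 0.00247), with each library left out in turn too, and HSP17.4A (Spo18983) was lower (adjusted p = 0.0399). HSP18.1 (Spo10954), the most abundant, differed by -0.07 (adjusted p = 0.912).

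Among 82 co-chaperone genes 9 were higher, with ANJ1 at 110 ± 74.4 FPKM in LN and 19.4 ± 2.67 FPKM in HN (2.25, limma adjusted p = 0.0126), and 7 were lower. The ANJ1 call ended without any one of 2 libraries (adjusted p = 0.096 without LN T1 replicate 3). Of 15 endoplasmic reticulum folding genes 2 were higher, PDIL1-4 by 0.80 (adjusted p = 0.00758) and BZIP17 by 0.95 (adjusted p = 0.0137). Of 31 enzymes of peroxide and superoxide removal 1 was higher and 2 were lower, CAT1 by -0.86 (adjusted p = 0.0409) and SODCC.2 by -0.69 (adjusted p = 0.0225). Of 6 other heat response genes 0 passed, with MBF1B at -0.09 and HSBP, a binding partner of Hsfs, at 0.15. Without LN T1 replicate 3 fewer genes were called higher at T1, with 2 Hsp70 genes, 1 small heat shock protein gene, 2 co-chaperone genes and 0 of the Hsp100, endoplasmic reticulum and peroxide lists. In the same fit 0 genes of any of these lists were called lower, with CAT1 at an adjusted p of 0.112 and SODCC.2 at 0.114 (limma). Of all genes, 211 were higher and 165 lower in that fit. Without the 3 farthest libraries 8 small heat shock protein, 2 Hsp90 and 5 peroxide and superoxide genes were higher and 15 co-chaperone genes lower, and CAT1 did not pass (adjusted p = 0.0625). These counts stand against 1608 of all genes higher and 1715 lower without those libraries. With the block within T1, 1 other heat response gene and 2 peroxide and superoxide genes were higher, where 1052 of all genes were. Hsp70 genes called higher numbered 2 without HN T1 replicate 1 and 3 without HN T1 replicate 2.

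The genes most like HSFB2A over the 24 libraries, by Pearson correlation among 9398 named genes with a mean of at least 5 FPKM, were PUB1 (0.932), PILS2 (0.928), RPL10 (0.912), RTNLB1 (0.908) and REP (0.898). Over the 18 libraries of T2 to T4 they were eif2b1 (0.929), CXE2 (0.929), OFUT29 (0.925), PUB1 (0.921) and OST1B (0.918). PUB1, a ubiquitin conjugation factor, was in both sets. For HSF30 over 24 libraries they were a cysteine proteinase inhibitor gene (Spo04116, 0.912), a receptor-like kinase gene (Spo12657, 0.896), NFYA9 (0.889), BAM1 (Spo15691, 0.884) and ERF3 (0.878). Over T2 to T4 they were 2 PEAMT genes (0.887 and 0.885), FAOMT (0.836), RVE8 (0.815) and Nsmce3 (0.815). No gene stood in both HSF30 sets. BAM1, a beta-amylase of the chloroplast, had 117 to 288 FPKM in LN at T1 and 26.1 to 29.2 FPKM in HN, a log2 difference of 2.82 that carries no test because BAM1 was picked by its likeness to HSF30 over libraries that include T1.

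The genes next to HSFB2A and HSF30 on their chromosomes differed from them in level. CET1, 13866 bases from HSFB2A, averaged 0.148 FPKM and was not tested, and the unnamed gene Spo12959, 5252 bases to its other side, differed by -0.09 at T1 (limma adjusted p = 0.845). CYP711A1 ends 124 bases below HSF30 on the same strand, averaged 0.402 FPKM and was not tested. GRXC6, a glutaredoxin gene 16595 bases above HSF30, averaged 169 ± 81.8 FPKM in LN and 40.7 ± 16.5 FPKM in HN at T1 (1.96, adjusted p = 0.0204).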

How the data were processed

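The deposited table gives FPKM per gene and library, scaled by the authors, with gene lengths, coordinates and protein names, per the file headers. Per the submitters' processing notes the tools were HISAT2, RSEM and DESeq2 1.20.0, and the series title names the Sp75 reference. FPKM times gene length were whole multiples of 1 step per library (100% of values within 0.01), from which whole fragments were recovered. Genes with at least 1 FPKM in at least 3 of 24 libraries (18110) were tested with limma 3.58.1 in R 4.3.3 on log2(FPKM + 1), fitting means of the 8 groups (residual degrees of freedom 16) with a variance trend and Benjamini-Hochberg adjustment over all tested genes at 0.05. The spread is that between plants, which the labels call independent.

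HSFB2A and HSF30, the gene lists and the tests were chosen with earlier results of these data known. Lists were matched by protein name, with 19 genes dropped by name. Named were all tested Hsf genes, up to 4 passing members at T1 with the smallest adjusted p and the 2 most abundant members of each other list (a selection is printed), the 5 genes most correlated with each of HSFB2A and HSF30, and their neighbours. Mean FPKM had to reach 5 for list members that passed and for correlated genes. None of the table's IDs matched the RefSeq gene table (0). Same-numbered LN and HN libraries at T1 deviated together (correlations 0.145, 0.414 and 0.136), which comes from the data and not the labels, and those of other groups did not all do so. No replicates were near duplicates (lowest chi-square per degree of freedom 27.7). Counting error on low values is given by the fragments. The tests were tried on simulated data.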

Additional observations from a re-analysis of the deposited data

How the results depend on the processing

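The values of HSFB2A and HSF30, and the counts of other Hsf and Hsp70 genes at T1, make 32 results, each recomputed under 11 alternatives and without each of 24 libraries. Of these values 1073 stayed on their side of the threshold (or near the first value) and 47 did not, and 23 results stayed throughout. Among differences of HSFB2A and HSF30, 11 values of 5 results took the other sign, and 0 of these passed the test in either fit. The cause of the changes was not tested.

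The T1 difference of HSFB2A was 3.45 with a pseudocount of 0.1, 1.48 with a pseudocount of 5 and 3.56 with voom, in place of 2.67. For HSF30, T4 minus T3 in HN missed the threshold with a pseudocount of 5 (0.73), no filter (1.17) and voom (1.38), and lay between 1.07 and 1.29 over the left-out libraries. Its F test in HN gave 0.0652 with a pseudocount of 5 and 0.062 with voom, and 0.00214 to 0.0919 over the left-out libraries. T4 minus T3 in LN passed with a common sum of FPKM (1.23) and ranged over 0.83 to 1.35, T3 minus T2 in HN over -1.84 to -1.05, and T2 minus T4 in LN over 0.80 to 1.43. The common sum shifts the median of all genes by up to -0.343 (T2 minus T4 in HN), where HSF30 was at -0.24 in place of 0.15.

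Of other Hsf genes, 4 were higher at T1, against 2 with a pseudocount of 0.1, 2 with no filter, 2 with a mean of at least 5 FPKM, 0 with only the T1 groups, and 0 to 5 over left-out libraries. Of Hsp70 genes, 5 were higher, against 3 with a pseudocount of 0.1, a mean of at least 5 FPKM, only the T1 groups or voom, and 2 to 6 over left-out libraries. The 1 lower Hsp70 gene became 0 with a common sum or only the T1 groups, and 0 to 1 over left-out libraries.

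Over left-out libraries 0 to 133 of all genes were higher at T4, and voom takes whole fragments in place of FPKM. The 84 same-number correlations of deviations from group means ran from -0.447 to 0.465, with a median of -0.0287. All 3 numbers were above 0.1 in 1 of 28 pairs of groups, LN and HN at T1. Whether these libraries are paired was not tested. A block within T1, chosen after seeing the data, left 4 other Hsf and 5 Hsp70 genes higher. With the replicate number as a block for all libraries, HSFB2A at T4 was 1.09 (limma adjusted p = 0.156), 0 calls of HSFB2A or HSF30 changed and 3 other Hsf genes were higher at T1.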
